A study of Mus musculus with 8 samples.

Results

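Iron handling in BAT was examined through 9 genes, grouped here by their role. Fth1 and Ftl1 encode the heavy and light chains of ferritin, which stores iron. Tfrc (transferrin receptor 1), Trf (transferrin) and Slc11a2 (divalent metal transporter 1) bring iron into cells, Slc40a1 (ferroportin) exports it, and Hmox1 (heme oxygenase 1) releases it from heme. Aco1 and Ireb2 encode the iron regulatory proteins. The genes were chosen by name for these roles, by a rule that uses no measured value, and they are 9 of the 31053 gene identifiers in the count table.

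Cells take up transferrin-bound iron through the transferrin receptor, keep the surplus in ferritin shells and release iron through ferroportin. When iron is scarce, the iron regulatory proteins bind a stem-loop in target mRNAs, the iron-responsive element (IRE). Bound in the 5′ UTR, as in the ferritin mRNAs, they block translation, and bound in the 3′ UTR, as in the Tfrc mRNA, they protect the transcript from decay. Brown adipocytes are rich in mitochondria, whose heme proteins and iron-sulfur clusters depend on an iron supply.

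Bulk RNA-seq libraries of BAT, the thermogenic fat, came from C57BL6/J mice with a labelled age of 8 weeks, 4 of them labelled WT and 4 Cd36KO. Cd36 encodes a scavenger receptor for lipids on macrophages, adipocytes and endothelial cells. The labels do not say in which cells it was deleted. The study made germline CD36-/- mice and CD36 flox/flox × Csf1r Cre mice, in which Cre is driven from a promoter active in macrophages and other myeloid cells, and it links its knockout BAT transcriptome to the myeloid deletion. For the latter mice its methods give an older age than the label. Whether the WT mice carried the floxed allele or Cre is not given in the sources used here. Among the count columns 1 of the Cd36KO group bears no number, and it is named here the unnumbered Cd36KO library. The series calls its samples biological replicates without naming the animals, so p-values measure the spread between these libraries.

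Total counts ranged from 2679785 to 4097953 per library. The labels name the stromal vascular fraction as cell type, but the brown adipocyte markers Adipoq, Plin1 and Ucp1 were abundant in all 8 libraries, as in whole tissue. The methods describe male mice, whereas Xist had 772 to 1588 raw counts in each library, and Uty, Kdm5d and Eif2s3y had 0 and Ddx3y at most 3. Cd36 itself averaged 2918 ± 454 normalized counts in WT libraries against 2087 ± 216 in Cd36KO libraries (mean ± SD, n = 4 per group). Its log2 fold change was -0.48, which did not pass in DESeq2 (adjusted p = 0.0602) or edgeR (adjusted p = 0.191). All Cd36KO values lay below all WT values (exact two-sided permutation p = 0.0286), and the transcript stayed abundant in libraries labelled Cd36KO. Marker lists also set libraries apart. The sum of 20 skeletal muscle genes was 86848 normalized counts in WT replicate 1 and from 490 to 15800 in the others. The sum of 9 white fat genes was 696 in WT replicate 1, from 4188 to 5159 in the other WT libraries and from 577 to 1043 in Cd36KO. The sum of the erythroid list was 16259 in the unnumbered Cd36KO library and from 4615 to 8771 in the others.

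IRE-like stem-loops are printed first, since they are the sequence feature that ties storage, export and import genes to the 2 iron regulatory proteins. All annotated GENCODE M21 transcripts of protein-coding genes were searched on the transcript strand for C, 5 bases, CAGTGN and 5 further bases able to pair with the first 5, with G-T pairs allowed. The pattern was present in the transcripts of 4 of the 9 genes and of 294 of 21901 protein-coding genes (1.34%). It lay in the 5′ UTR of Fth1, Ftl1 and Slc40a1, a position it had in 0.142% of protein-coding genes, and in the 3′ UTR of Tfrc, a position it had in 0.589%. Fth1, Ftl1 and Slc40a1 had 1 match each, and Tfrc had 4. Of the transcripts searched, the match was in 4 of 5 for Fth1, 1 of 2 for Ftl1 and 1 of 4 for Slc40a1, and each Tfrc match was in 1 of 3. Each line gives 29 bases of build GRCm38 (mm10), 5′ to 3′ on the strand of the gene, with the bulged C and the 6-base loop in capitals.
Fth1, 5′ UTR, chr19:9982732-9982760, plus strand: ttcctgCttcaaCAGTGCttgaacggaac
Ftl1, 5′ UTR, chr7:45459779-45459807, minus strand: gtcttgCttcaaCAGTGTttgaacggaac
Slc40a1, 5′ UTR, chr1:45925465-45925493, minus strand: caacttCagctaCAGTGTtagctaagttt
Tfrc, 3′ UTR, chr16:32631219-32631247, plus strand: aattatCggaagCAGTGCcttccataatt
Tfrc, 3′ UTR, chr16:32631598-32631626, plus strand: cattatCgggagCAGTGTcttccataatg
Tfrc, 3′ UTR, chr16:32631663-32631691, plus strand: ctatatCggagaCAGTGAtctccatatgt
Tfrc, 3′ UTR, chr16:32631710-32631738, plus strand: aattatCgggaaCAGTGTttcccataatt

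The Fth1 and Ftl1 matches have the same 5 bases on each side of the loop, and the Slc40a1 stem is made of other bases. A match is a description of the letters, and no match in Slc11a2, Trf, Hmox1, Aco1 or Ireb2 says only that this pattern is not in their annotated transcripts.

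Per kilobase of annotated exon, and averaged over all 8 libraries, the ferritin genes and Trf were the most abundant of the 9. Fth1 had 749 normalized counts per kb, Ftl1 274 and Trf 243. The others followed at 31.7 for Aco1, 18.4 for Tfrc, 14.9 for Slc11a2, 13.1 for Hmox1, 7.09 for Ireb2 and 6.71 for Slc40a1. Only Trf and Aco1, next to each other in this order, had ranges over the libraries that did not overlap. Exon length counts all annotated isoforms, so the order is approximate. It also differed by group, with Trf above Ftl1 in WT (356 against 301 per kb) and below it in Cd36KO (129 against 246), and with Hmox1 (13.2) above Tfrc (12.8) and Slc11a2 (12.7) in WT only.

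Of the 9 genes, Tfrc rose in Cd36KO and the other 8 did not pass the DESeq2 threshold, an adjusted p under 0.05. Over the whole table, 284 of 9617 genes passed (2.95%), 137 higher (1.42%) and 147 lower (1.53%) in Cd36KO, so 1 call among 9 genes is too few to set the group apart from that background. An unadjusted p under 0.05 was found for 3 of the 9 in DESeq2 (Tfrc, Trf and Aco1), and for 1694 genes in all. In edgeR 0 of the 9 passed and 3 had an unadjusted p under 0.05, where 14 of 9793 genes passed (0.143%) and 1580 had an unadjusted p under 0.05. Estimates were positive for 3 of the 9 genes and negative for 6, with a median log2 fold change of -0.07, against -0.01 over all genes tested. WT and Cd36KO values overlapped for all 9, whereas they were apart for 601 of 5528 genes with a mean of at least 50 normalized counts (10.9%). Groups of 3 and 4 libraries are apart more often. Without WT replicate 1 this held for 3 of the 9, beside 16.6% of those 5528 genes, and without Cd36KO replicate 2, 3 or 4 for 1 of the 9, beside 14.1% to 18.2%. In bulk tissue, fewer cells of a type and less RNA per cell cannot be told apart.

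**Figure D1:**
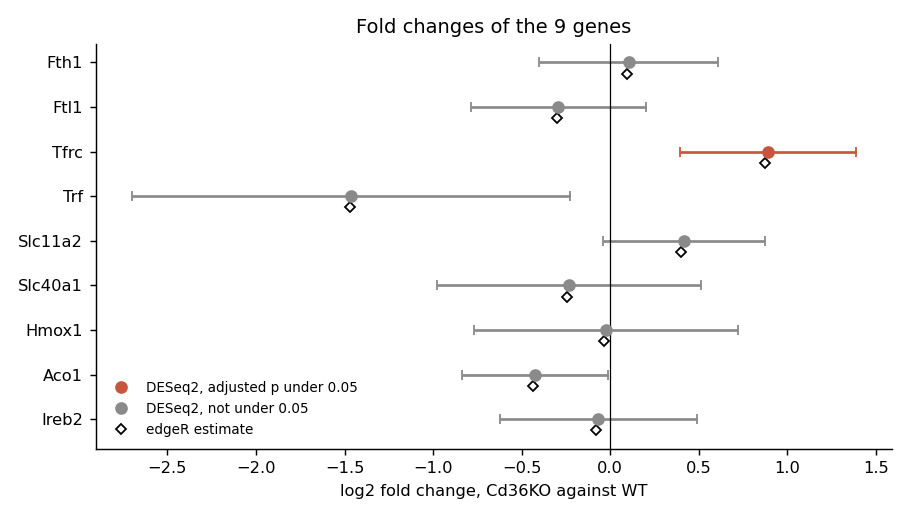
The log2 fold change of each gene, Cd36KO against WT, is plotted with its 95% interval from DESeq2 (circles and bars, n = 4 libraries per group), and edgeR estimates are the open diamonds. Tfrc, at 0.89, was the only gene past the adjusted threshold, and the interval of Trf was the widest.

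Among the storage genes, neither ferritin chain differed beyond the spread between libraries. Fth1 (chromosome 19, 9980598 to 9985098, plus strand) encodes the chain with ferroxidase activity. It had 1525, 2430, 2184 and 3881 normalized counts in WT replicates 1 to 4, 3116 in the unnumbered Cd36KO library and 2316, 2103 and 3225 in Cd36KO replicates 2 to 4. The lowest and the highest library were both WT. Its log2 fold change was 0.10 (standard error 0.26, 95% interval -0.40 to 0.61, DESeq2 adjusted p = 0.905). With the white fat score as a covariate it was 1.28 (DESeq2 adjusted p = 0.00176). This score, the mean log2 level of the detected white fat markers, was higher in every WT library than in any Cd36KO library. Fits with it therefore cannot part white fat content from genotype. The Fth1 fit rests on WT replicate 1, the WT library with the lowest Fth1 and the only one with a low white fat sum.

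The 3 libraries highest in Fth1 were also the 3 highest in the erythroid sum, mostly globin, but the others did not keep that order. WT replicate 4, Cd36KO replicate 4 and the unnumbered Cd36KO library ranked 1, 2 and 3 for Fth1 and 3, 2 and 1 for the erythroid sum. WT replicate 2 ranked 4 for Fth1 and 8 for the erythroid sum, and Cd36KO replicate 3 ranked 7 and 4. Of the 9 erythroid genes listed, 7 were detected and Slc4a1 was at 0. In both DESeq2 and edgeR 0 of them passed, with an unadjusted p under 0.05 for 1 in DESeq2 and 0 in edgeR. The erythroid sum was 4615 to 8591 in WT and 4836 to 16259 in Cd36KO. The part of these transcripts in the Fth1 level was not tested.

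Ftl1 (chromosome 7, 45457944 to 45459884, minus strand), the chain that favours mineral nucleation, had 284, 390, 300 and 641 normalized counts in WT replicates 1 to 4. In Cd36KO it had 280 in the unnumbered library and 323, 363 and 352 in replicates 2 to 4. WT replicate 4 was the highest library for both chains, and the 4 Cd36KO values lay within the WT range but for 1 slightly below it. A log2 fold change of -0.29 (standard error 0.25, 95% interval -0.79 to 0.20) did not pass (DESeq2 adjusted p = 0.632). Ferritin has many near-identical copies in the genome. The table lists 10 genes with ferritin names. The 8 other than Fth1 and Ftl1, which are Ftl1-ps1, Ftmt and the Fthl17 genes, held 2 counts in all. Copies under other names were not searched for. Reads shared with such copies make both levels uncertain by an amount the counts do not show.

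The ratio of heavy to light chain needs no library scaling. Fth1 counts exceeded Ftl1 counts by 5.36 to 11.1 times in the 8 libraries. The log2 ratio was 2.63 ± 0.18 in WT and 3.01 ± 0.41 in Cd36KO (mean ± SD of 4 libraries each), a difference of 0.38. The ranges overlapped, at 2.42 to 2.86 in WT and 2.53 to 3.48 in Cd36KO, and the difference is given with no test. It was 0.22 without the unnumbered Cd36KO library.

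Of the import genes, Tfrc (chromosome 16, 32608920 to 32632794, plus strand) was higher in Cd36KO. It had 109, 78.1, 58.8 and 71.2 normalized counts in WT replicates 1 to 4, 164 in the unnumbered Cd36KO library and 170, 103 and 154 in Cd36KO replicates 2 to 4. Of the 4 Cd36KO libraries, 3 lay above all WT libraries, and Cd36KO replicate 3 lay just under WT replicate 1. The means were 79.3 ± 21.5 and 148 ± 30.4 (mean ± SD of 4 libraries each), a log2 fold change of 0.89 (standard error 0.25, 95% interval 0.40 to 1.39), or 1.86-fold, with a DESeq2 adjusted p of 0.0264. The edgeR adjusted p was 0.126, and the exact two-sided permutation p was 0.0571, where the smallest that 4 against 4 libraries can give is 0.0286.

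The Tfrc estimate kept its sign in all 18 alternatives, at 0.37 to 1.26, and passed the threshold in 7 of them, with adjusted p-values from 0.00162 to 0.658. Leaving out 1 library ended the call for 5 of the 8 libraries. The DESeq2 adjusted p was 0.0872 without WT replicate 2, 0.135 without WT replicate 3, 0.137 without the unnumbered Cd36KO library, 0.0649 without Cd36KO replicate 2 and 0.0907 without Cd36KO replicate 4. Without WT replicate 1, the WT library with the highest Tfrc and by far the most muscle transcripts, the estimate was 1.08 (DESeq2 adjusted p = 0.00162). With the erythroid score as a covariate it was 0.93 (DESeq2 adjusted p = 0.0998), and with total counts as size factors 0.81 (DESeq2 adjusted p = 0.0778). The white fat score as a covariate moved it most, to 0.37 (DESeq2 adjusted p = 0.658). When 1 library was left out, between 0 and 2 of the 9 genes passed, the 2 being Tfrc and Trf without WT replicate 1. Of the 10 brown adipocyte markers, Ucp1, Cidea and Cox7a1 also rose in DESeq2 and 0 passed in edgeR, with 6 at an unadjusted p under 0.05 in either direction in each. Others of the list had negative estimates, with log2 fold changes of -0.73 for Fabp4, whose groups did not overlap, -0.45 for Plin1, -0.27 for Adipoq and -0.19 for Lipe, and did not pass. The sum of the list was 41437 to 64979 in WT and 55439 to 61993 in Cd36KO. The part of brown adipocyte content in the Tfrc level was not tested.

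Trf (chromosome 9, 103204001 to 103230444, minus strand), the iron carrier that Tfrc binds, had 1374, 1737 and 1430 normalized counts in WT replicates 2, 3 and 4. It had 187 in WT replicate 1, 521 in the unnumbered Cd36KO library and 547, 311 and 336 in Cd36KO replicates 2 to 4. The WT group thus held both the lowest library and the 3 highest. The means were 1182 ± 682 and 429 ± 123 (mean ± SD of 4 libraries each), a log2 fold change of -1.46 (standard error 0.63, 95% interval -2.70 to -0.23). It did not pass, with an adjusted p of 0.208 in DESeq2 and 0.163 in edgeR and a two-sided exact p of 0.200 by permutation. An annotated gene that overlaps Trf on the same strand, Gm20425, had 0 counts.

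The Trf result turned on WT replicate 1. Without it the log2 fold change was -1.82 (DESeq2 adjusted p = 1.8e-14). WT replicate 1 was also the WT library with a low white fat sum, which is mostly Nnat and Retn. For Lep, Hoxc8, Aldh1a1 and Mest it lay above all Cd36KO libraries. For Nnat, Sncg and Hoxc9 it lay within their range, and for Retn below it. Of the 9 white fat markers, 8 were detected, Hoxc10 was at 0, and Lep, Hoxc8, Nnat, Aldh1a1 and Sncg were lower in Cd36KO in DESeq2. Trf and the white fat sum were high in the same 3 libraries, WT replicates 2, 3 and 4. With the white fat score as a covariate the Trf estimate changed direction, to 1.92 (DESeq2 adjusted p = 0.000688). In that fit the score of every WT library, WT replicate 1 included, lay above those of all Cd36KO libraries. The estimate thus extends beyond any overlap of the groups and rests on WT replicate 1, the WT library nearest to Cd36KO.

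**Figure D2:**
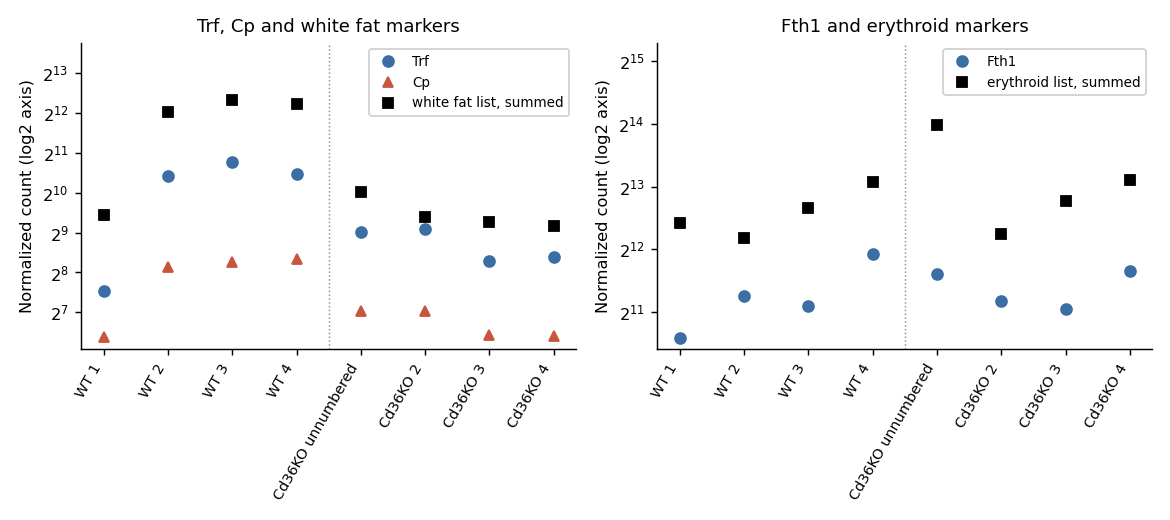
Normalized counts per library are plotted on a log2 axis, with Trf, Cp and the summed white fat markers in one panel and Fth1 and the summed erythroid markers in the other. WT replicate 1 lies with the Cd36KO libraries for Trf, Cp and the white fat sum, which is mostly Nnat and Retn. The unnumbered Cd36KO library has the highest erythroid sum, 16259.

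Slc11a2 (chromosome 15, 100387898 to 100425072, minus strand), which carries iron out of endosomes, had 93.0, 67.9, 77.6 and 85.1 normalized counts in WT replicates 1 to 4. It had 143 in the unnumbered Cd36KO library and 94.4, 106 and 89.2 in Cd36KO replicates 2 to 4. All Cd36KO values but that of replicate 4 were above all WT values. This log2 fold change of 0.41 (standard error 0.23, 95% interval -0.04 to 0.87) did not pass, with a DESeq2 adjusted p of 0.391 and a two-sided exact p of 0.0571 by permutation. The antisense gene Gm5475 held 1 count.

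The exporter Slc40a1 (chromosome 1, 45908068 to 45926523, minus strand) had 79.4, 62.9, 72.9 and 46.5 normalized counts in WT replicates 1 to 4. In Cd36KO it had 32.3 in the unnumbered library and 27.6, 99.2 and 62.5 in replicates 2 to 4. Cd36KO replicate 3 was the highest of the 8 libraries, and the unnumbered library and Cd36KO replicate 2 were the lowest. The log2 fold change was -0.23 (standard error 0.38, 95% interval -0.98 to 0.51), with a DESeq2 adjusted p of 0.835.

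Hmox1 (chromosome 8, 75093621 to 75100589, plus strand) had the fewest counts of the 9, with 14 to 38 raw counts per library. Its means were 23.1 ± 6.47 in WT and 22.8 ± 5.28 in Cd36KO (mean ± SD of 4 libraries each). The log2 fold change was -0.02 with a 95% interval of -0.77 to 0.72 and a DESeq2 adjusted p of 0.986, so changes within that interval are not excluded. The macrophage list, in which Hmox1 and Slc40a1 are not included, summed to 696 to 1313 normalized counts in WT and 749 to 1062 in Cd36KO, with all 13 markers detected and 1 of them, Cd163, lower.

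Of the sensors, Aco1 (chromosome 4, 40143081 to 40198338, plus strand), which is a cytosolic aconitase when it holds an iron-sulfur cluster, had 144, 172, 136 and 199 normalized counts in WT replicates 1 to 4. In Cd36KO it had 109 in the unnumbered library and 151, 123 and 104 in replicates 2 to 4. Only Cd36KO replicate 2 reached into the WT range. The log2 fold change was -0.43 (standard error 0.21, 95% interval -0.84 to -0.01), and the adjusted p was 0.299 in DESeq2 and 0.270 in edgeR, beside a two-sided exact p of 0.0857 by permutation. Its estimate was negative in all 18 alternatives, from -0.54 to -0.22, and passed the threshold in 0 of them.

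Ireb2 (chromosome 9, 54863789 to 54912530, plus strand), whose protein is degraded when iron is plentiful, had 82.1, 61.2, 82.3 and 49.5 normalized counts in WT replicates 1 to 4. It had 50.1 in the unnumbered Cd36KO library and 90.9, 54.2 and 67.1 in Cd36KO replicates 2 to 4. The groups were interleaved, with a log2 fold change of -0.07 (standard error 0.28, 95% interval -0.62 to 0.49) and a DESeq2 adjusted p of 0.948.

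**Figure D3:**
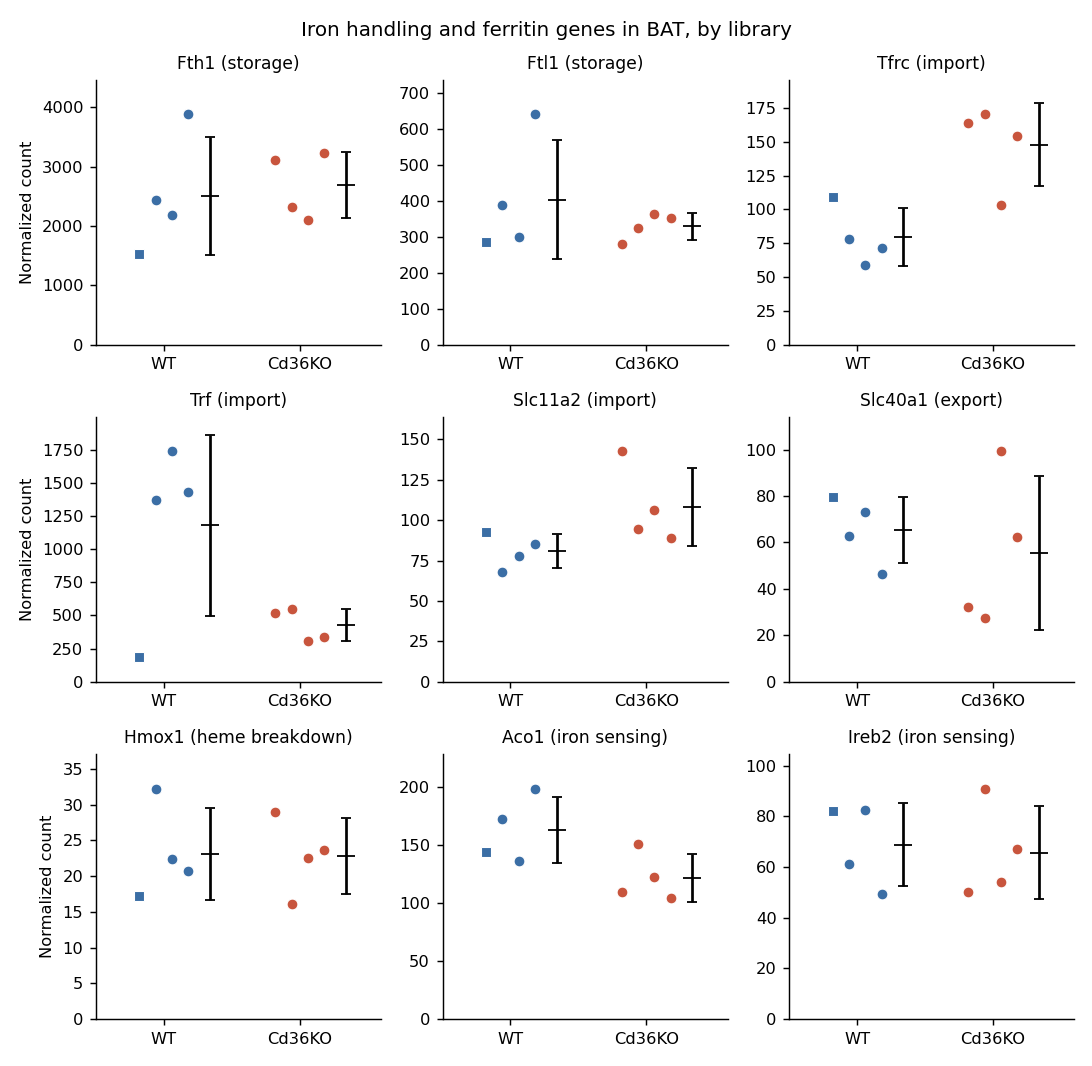
Normalized counts of the 9 genes are plotted by library, WT in blue and Cd36KO in red, with the mean ± SD of each group (n = 4) beside the points and WT replicate 1 as a square. Tfrc had 3 of 4 Cd36KO libraries above all WT libraries, and WT replicate 1 stood apart from the other WT libraries for Trf.

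Ratios between these genes were compared as further values free of scaling, with no test. The log2 ratio of Tfrc to Fth1, import receptor to storage chain, was -4.94 ± 0.83 in WT and -4.19 ± 0.29 in Cd36KO (mean ± SD of 4 libraries each). The difference of 0.75 was smaller than the SD of the WT group, and WT replicate 1, at -3.80, lay within the Cd36KO range of -4.39 to -3.77. The difference was 1.13 without WT replicate 1 and 0.47 without WT replicate 4. The log2 ratio of Ireb2 to Aco1 was -1.26 ± 0.60 in WT and -0.92 ± 0.27 in Cd36KO (mean ± SD of 4 libraries each), a difference of 0.34 with overlapping groups. It was 0.095 without WT replicate 4 and 0.52 without WT replicate 3.

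For each of the 8 genes with a mean of at least 50 normalized counts, the gene with the most similar pattern over the 8 libraries was found as the smallest root-mean-square distance of log2 values centred per gene. It was 1110032A03Rik for Fth1 (0.0970), Slc39a1, a zinc transporter, for Ftl1 (0.118) and Erlin2 for Tfrc (0.237). For Trf it was Htra3 (0.266), for Slc11a2 Pbxip1 (0.100) and for Slc40a1 Fli1 (0.246). For Aco1 it was Abca8a (0.119) and for Ireb2 Cd3eap (0.118). Each is the nearest among the genes at that level, so a small distance is given by the search itself.

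The wider pathway was described by 67 other iron and heme genes, of which 5 had no count and 55 had a DESeq2 adjusted p. Of these 55, 1 rose, 5 fell and 49 did not pass, which is 10.9% called, beside 2.95% of all genes. The median log2 fold change was -0.01. In edgeR 0 of the 55 passed, and 17 had an unadjusted p under 0.05. The count of 6 was 0 with limma on the authors' log2 values, 1 with the erythroid score as a covariate and from 1 to 8 when 1 library was left out. It was 1 without WT replicate 2, with 27 of the genes still given an adjusted p, and 1 without WT replicate 3. It was 2 without the unnumbered Cd36KO library, 2 without Cd36KO replicate 3 and 3 without Cd36KO replicate 4. With the white fat score as a covariate it was 7, of which 1, Isca1, was among the 6, and all 5 lower calls were lost. That score was higher in every WT library than in any Cd36KO library, so the fit cannot part white fat content from genotype. Groups did not overlap for 10 of the 67, 5 higher and 5 lower.

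The ferroxidases, which oxidise iron so that transferrin can bind it, gave 2 of the 5 lower genes. Heph (hephaestin, chromosome X, 96455359 to 96574485, plus strand) fell from a mean of 90.3 ± 36.4 in WT to 28.8 ± 8.25 in Cd36KO (SD of 4 libraries each). Its log2 fold change of -1.65 passed in DESeq2 (adjusted p = 0.00106) and not in edgeR (adjusted p = 0.0749). Its Cd36KO values, 19.1 to 38.0, all lay below the WT values of 48.7 to 133. Of the 16 alternatives that gave Heph an adjusted p, 13 kept it past the threshold. With the white fat score as a covariate the estimate was -0.76 (DESeq2 adjusted p = 0.478).

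Cp (ceruloplasmin, chromosome 3, 19957054 to 20009145, plus strand) had the same arrangement of libraries as Trf. It had 83.0 normalized counts in WT replicate 1, 283 to 323 in the other WT libraries and 84.7 to 131 in Cd36KO. With a log2 fold change of -1.21, it passed in DESeq2 (adjusted p = 0.0301) and not in edgeR (adjusted p = 0.126). Without WT replicate 1 it was -1.50 (DESeq2 adjusted p = 6.2e-09). The call was lost without WT replicate 2, WT replicate 3, WT replicate 4, Cd36KO replicate 3 or Cd36KO replicate 4 (DESeq2 adjusted p = 0.0951, 0.144, 0.0501, 0.0870 and 0.0989), and the sign changed with the white fat score as a covariate, to 0.86. Hfe, the next in level of this list, had 57.3 ± 19.6 and 51.1 ± 17.02 normalized counts (mean ± SD of 4 libraries each) and did not pass (DESeq2 adjusted p = 0.885).

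Among 6 tested genes of iron import and reduction, Steap4, a metalloreductase (chromosome 5, 7960457 to 7982213, plus strand), fell from a mean of 69.1 ± 17.1 in WT to 27.0 ± 15.0 in Cd36KO (SD of 4 libraries each). A log2 fold change of -1.34 passed in DESeq2 (adjusted p = 0.0282) and not in edgeR (adjusted p = 0.121). WT replicate 1 (44.2) lay below Cd36KO replicate 4 (48.0), and the other 3 WT values lay above all Cd36KO values. The call was lost without WT replicate 3 (DESeq2 adjusted p = 0.108) or the unnumbered Cd36KO library (DESeq2 adjusted p = 0.134). It was also lost with the muscle score, at an estimate of -1.32 (DESeq2 adjusted p = 0.134), with the erythroid score, at -1.37 (DESeq2 adjusted p = 0.117), and with the white fat score, where the estimate was -0.34 (DESeq2 adjusted p = 0.799). Mcoln1, a lysosomal channel, and Steap3, the endosomal ferrireductase, had log2 fold changes of 0.24 and -0.16 and did not pass.

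In the list of heme and hemoglobin scavenging, 2 of 9 tested genes fell. Cd163, the hemoglobin-haptoglobin receptor of macrophages (chromosome 6, 124304656 to 124330527, plus strand), had values of 46.9 to 115 in WT and 25.2 to 42.6 in Cd36KO, a log2 fold change of -1.25 (DESeq2 adjusted p = 0.0183, edgeR adjusted p = 0.110). It is itself 1 of the 13 macrophage markers, whose sums overlapped between the groups. Of that list 4 had an unadjusted p under 0.05 in each of DESeq2 and edgeR. Among the markers that did not pass, Itgam had a log2 fold change of -1.51, Mrc1 of -0.85 and Mertk, whose groups did not overlap, of -0.72. C1qc had -0.32, Csf1r -0.03 and Cd68 -0.003, whereas Lyz2 (0.19), C1qa (0.19) and C1qb (0.10) were positive. Adgre1 (-0.66), Cd14 (0.44) and Fcgr1 (0.23) had no adjusted p. The part of macrophage content in the Cd163 level was not tested. Lrp1, the hemopexin receptor (chromosome 10, 127538161 to 127621148, minus strand), had values of 171 to 299 in WT and 68.0 to 135 in Cd36KO, a log2 fold change of -0.999 (DESeq2 adjusted p = 0.0106, edgeR adjusted p = 0.108). The Cd163 call was lost without WT replicate 3, the unnumbered Cd36KO library, Cd36KO replicate 3 or Cd36KO replicate 4 (DESeq2 adjusted p = 0.163, 0.0523, 0.0670 and 0.0831). The Lrp1 call was lost without WT replicate 3 or the unnumbered Cd36KO library (DESeq2 adjusted p = 0.0968 and 0.0603). With the white fat score as a covariate the estimates were -0.44 for Cd163 (DESeq2 adjusted p = 0.708) and -0.97 for Lrp1 (DESeq2 adjusted p = 0.175), and with the erythroid score, at estimates of -1.13 and -0.85, both calls were lost as well (DESeq2 adjusted p = 0.158 and 0.118). Hp (haptoglobin), Slc48a1, a heme transporter, and Hmox2, the constitutive heme oxygenase, were the most abundant of the list, had log2 fold changes of -0.32, -0.11 and 0.33, and did not pass. With the white fat score as a covariate Hp and Slc48a1 passed. Beside these lower genes, the sum of 8 stromal markers was 1558 to 2194 in WT and 1346 to 1541 in Cd36KO, with 1 of the 8, Col1a2, lower, and its part in them was not tested.

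None of the 9 genes of heme synthesis passed in the main DESeq2 fit or edgeR, and 1 had an unadjusted p under 0.05 in each. Urod passed in 1 of 18 alternatives, DESeq2 with the white fat score as a covariate (adjusted p = 8.6e-09), and its estimates ranged from 0.043 to 2.48. Alas1, its first enzyme outside the erythroid lineage, had 411 ± 49.8 and 407 ± 97.5 normalized counts (mean ± SD of 4 libraries each), and Urod and Alad had log2 fold changes of 0.51 and 0.27. Of 20 tested genes of mitochondrial iron and iron-sulfur assembly, Isca1 (chromosome 13, 59755409 to 59769810, minus strand) rose from a mean of 284 ± 33.7 in WT to 444 ± 107 in Cd36KO (SD of 4 libraries each). Its log2 fold change of 0.65 passed in DESeq2 (adjusted p = 0.0477) and not in edgeR (adjusted p = 0.140), and 4 of 18 alternatives kept the call. Leaving out any library but WT replicate 4 or Cd36KO replicate 2 ended it, with DESeq2 adjusted p-values from 0.0655 to 0.270. The most abundant of that list, Hspa9, Glrx5 and Bola3, had log2 fold changes of 0.10, 0.45 and -0.02 and did not pass. Glrx5 passed in 2 of 18 alternatives, with the white fat score as a covariate and without WT replicate 4.

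Among ferritin handling genes, the iron chaperones Pcbp2 and Pcbp1 and the ferritin autophagy receptor Ncoa4 did not pass. Pcbp1 averaged 210 ± 32.3 normalized counts in WT against 297 ± 12.1 in Cd36KO (SD of 4 libraries each), with no overlap (DESeq2 adjusted p = 0.0768). It passed in 2 of 18 alternatives, without WT replicate 4 and with the white fat score as a covariate. Its estimates over the 18 ranged from 0.39 to 0.99. Ncoa4 had 25.9 ± 14.7 and 21.5 ± 4.02, and Pcbp2 471 ± 37.7 and 500 ± 60.6 (mean ± SD of 4 libraries each). Of the regulators, Fbxl5, which marks the Ireb2 protein for degradation, averaged 52.8 ± 11.9 normalized counts in WT against 30.3 ± 5.17 in Cd36KO (SD of 4 libraries each), with no overlap and a DESeq2 adjusted p of 0.133. Epas1, a hypoxia-inducible factor, had a log2 fold change of -0.08 and did not pass.

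**Figure D4:**
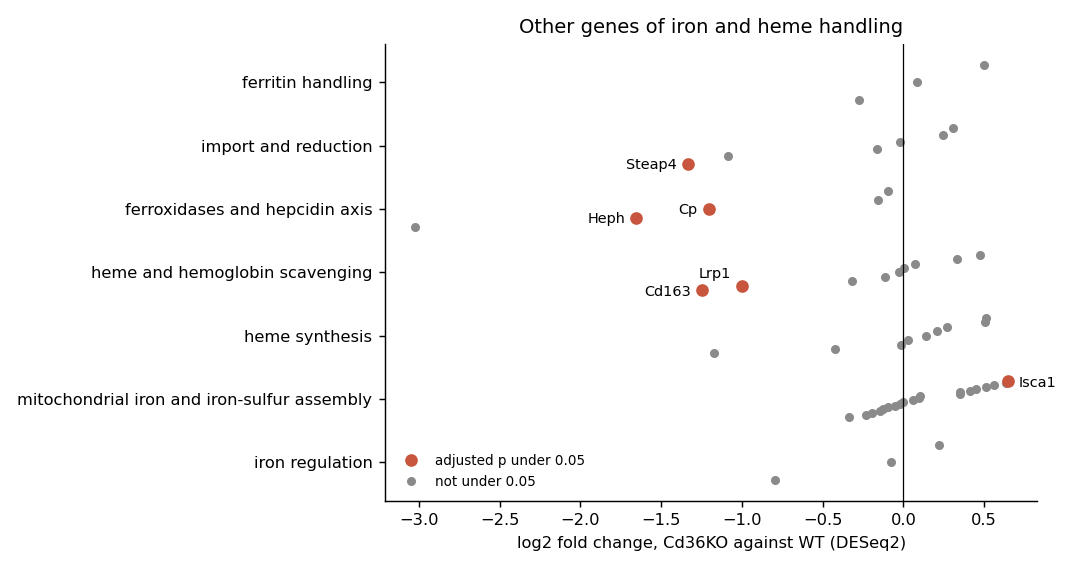
The log2 fold change of each of 55 other iron and heme genes, Cd36KO against WT from DESeq2, is plotted by list, with genes past the adjusted threshold in red and named. The lower calls were 1 of import and reduction, 2 ferroxidases and 2 of heme and hemoglobin scavenging, and the higher call was Isca1, at 0.65.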

How the data were processed

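According to the methods, the authors used bbduk for trimming single-end reads, STAR for alignment and HTSeq-count for counting, on build mm10. The submitters' processing notes instead list Trimmomatic and HISAT2. The deposited counts are whole numbers per gene without normalization, and a second deposited table holds log2 values, found here to equal log2 of count over a median-of-ratios factor plus a pseudocount of 1. None of the sources used here gives the annotation release, the strand setting or molecular identifiers, so overlapping genes and near-identical copies are less certain. Of 31053 identifiers, 30934 matched GENCODE M21 (GRCm38), and 17367 had a count. Symbol Hjv was matched through its older symbol, Hfe2. Sequences came from GENCODE M21 transcripts.

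DESeq2 1.42.0 (R 4.3.3) was fitted to all genes with genotype as the only term, as the study's methods name DESeq2, with default independent filtering and Benjamini-Hochberg adjustment over all genes. Normalized counts are counts over the median-of-ratios factor. Alternatives were edgeR 4.0.16, limma 3.58.1 on the authors' log2 values, other size factors and filters, muscle, white fat and erythroid scores as covariates, the replicate number as a block, and each library left out. Permutation tests (SciPy 1.17.1) enumerated 70 arrangements on log2(normalized count + 1). The 9 genes were named by role, with no measured value in the rule, but they, the lists of other genes and the alternatives were chosen with earlier results of these data known. Of the other iron genes, those past the threshold and the 3 most abundant of each list are named, except for an item that is not reported here. Xist, Y-linked genes and overlapping genes are named only as checks. Figures were drawn with matplotlib 3.10.9.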

Additional observations from a re-analysis of the deposited data

Results flagged for a closer look

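Dixon's test at the 95% level was run on 70 groups of 4 libraries to find values far from the rest of a group. It marked 4 of them, and chance alone marks about 1 in 20 groups. Trf had 187 normalized counts in WT replicate 1, against 1374 to 1737 in the other WT libraries. Cp had 83.0 in WT replicate 1, against 283 to 323. Isca1 had 234 in WT replicate 1, against 294 to 306 in the other WT libraries. Hp had 1319 in the unnumbered Cd36KO library, against 876 to 908 in the other Cd36KO libraries. WT replicate 1 also had the highest muscle sum and the lowest white fat sum of the WT group, and their part in these values was not tested.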

How the results depend on the processing

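The 284 genes called in DESeq2 became 14 with edgeR, 8 with limma, 171 with independent filtering off, 177 with the muscle score, 724 with the white fat score and 98 with the erythroid score, and from 70 (without WT replicate 2) to 498 (without WT replicate 4) when 1 library was left out. The 1 call among the 9 iron genes became 0 with edgeR, total counts, the erythroid score or limma, 2 with the white fat score (Fth1 and Trf), and 0 to 2 with 1 library left out. The 6 calls among other iron genes became 0 with edgeR or limma, 1 with the erythroid score, 7 with the white fat score (Isca1 the only 1 of the 6 among them), and 1 to 8 with 1 library left out. Several of these fits gave fewer genes an adjusted p; otherwise the cause was not tested. The log2 fold change of Cd36 passed with total counts (-0.55), with the muscle score (-0.66) and without WT replicate 4 (-0.56), and ranged from -0.56 to -0.38 with 1 library left out. The number of the 9 genes whose groups do not overlap ranged from 0 to 3 with 1 library left out, beside 12.1% to 23.8% of genes with a mean of at least 50.

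Estimates that changed sign were as follows. With the white fat score they were Ftl1 (0.47), Trf (1.92), Hmox1 (0.50), Cp (0.86), Hfe (1.14), Hp (1.27), Slc48a1 (1.57) and Hspa9 (-0.11). With the erythroid score they were Fth1 (-0.056), Ireb2 (0.11), Mcoln1 (-0.072), Alas1 (0.17) and Bola3 (0.042), and with the muscle score Hmox1 (0.083) and Ncoa4 (0.30). With 1 library left out the log2 fold change ranged from -0.075 to 0.39 for Fth1, -0.43 to 0.020 for Ftl1, -0.15 to 0.19 for Hmox1, -0.26 to 0.040 for Ireb2, -0.52 to 0.17 for Ncoa4, -0.36 to 0.0013 for Hfe, -0.36 to 0.070 for Slc48a1, -0.12 to 0.14 for Alas1, -0.076 to 0.059 for Bola3 and -0.16 to 0.0044 for Epas1. Of the 9 genes, Tfrc, Aco1, Slc11a2 and Slc40a1 kept their sign in all 18 alternatives. With 1 library left out Slc40a1 ranged from -0.66 (without Cd36KO replicate 3) to -0.013 (without Cd36KO replicate 2), and Slc11a2 from 0.26 to 0.50. Where DESeq2 gave a called gene no adjusted p, that fit was left out.

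Replicate numbers 2, 3 and 4 are shared by the groups, but same-numbered libraries deviated together for only 2 of 3 numbers (correlations -0.13, 0.42 and 0.14), so the numbers were not taken as pairs. With the replicate number as a block over those 6 libraries, 1 of the 9 genes passed (Trf, -1.96; 1.95% of all genes), and without the block on the same libraries, a fit added after seeing the data, 2 passed (Tfrc and Trf; 2.31% of all genes). Of the 6 other iron genes, 4 passed with the block, and Lrp1 (adjusted p = 0.0546) and Isca1 (adjusted p = 0.859) did not, while Hp (-0.70, adjusted p = 0.0144) and Hfe2, named after its values were seen, passed. Without the block the same 6 libraries also called Hp and not Isca1. With the block the sign changed for Fth1 (-0.13), Ireb2 (0.15), Ncoa4 (0.10), Mcoln1 (-0.040), Alas1 (0.17), Bola3 (0.086) and Epas1 (0.016).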

Other observations

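Some genes of the wider pathway had groups that did not overlap without passing the DESeq2 threshold. Of these, Fdxr and Uros are named after their values were seen. Fdxr, the reductase that passes electrons to ferredoxin for iron-sulfur assembly, averaged 51.4 ± 8.30 normalized counts in WT against 80.03 ± 9.62 in Cd36KO (SD of 4 libraries each, DESeq2 adjusted p = 0.137). Uros, an enzyme of heme synthesis, had 20.9 ± 3.88 and 9.31 ± 5.82 (SD of 4 libraries each, DESeq2 adjusted p = 0.220). Groups did not overlap for 10.9% of all genes with a mean of at least 50 normalized counts.

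The distance between the centred log2 patterns of Trf and Cp over the 8 libraries was 0.367. For white fat markers it was 0.473 (Retn), 0.704 (Nnat) and 0.795 (Sncg), and for Adipoq 0.759, against 0.266 for the gene nearest to Trf, Htra3. It was not computed for the other white fat markers. Of those, Lep, Hoxc8, Aldh1a1 and Mest had WT replicate 1 above all Cd36KO libraries and Hoxc9 within their range, whereas Trf had it below them.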
